A study of Mus musculus with 12 samples.

Results

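The genes described here are the nuclear genes of oxidative phosphorylation, the genes on nuclear chromosomes that encode parts of respiratory complexes I to V. They were chosen by symbol: 87 gene symbols in the count tables match the naming patterns of these subunits (Nduf, Sdh, Uqcr, Cyc1, Cox4i to Cox8 and Atp5), and Cox6b2 was left out. That leaves 86 of 23420 genes, of which 37 belong by symbol to complex I, 6 to complex II, 9 to complex III, 17 to complex IV and 17 to complex V. Of these 86, 80 encode subunits; the others are the assembly factors Sdhaf1, Sdhaf2 and Atp5sl, the associated factor Atp5s, the related protein Ndufa4l2 and the supercomplex factor Cox7a2l. Subunits encoded by mitochondrial DNA were not analysed here.

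Total RNA of liver from C57BL/6 mice was sequenced as 12 libraries in 6 groups of 2. KO livers lack Gdown1 in hepatocytes by design: they carry floxed alleles of it (gene symbol Polr2m, encoding a binding partner of RNA polymerase II) and Alb-Cre, a Cre recombinase driven by the albumin promoter and so active in hepatocytes; FF livers carry the floxed alleles without Cre, and both were taken at 7 weeks with p53 intact. DKO livers combine the floxed alleles and Alb-Cre with p53-/-, p53KO livers have the floxed alleles and p53-/- without Cre, and both were taken at 8 weeks. DKO TAM livers have the floxed alleles, p53-/- and Alb-CreERT2, a Cre that acts once tamoxifen is given; p53KO TAM livers are p53-/- with floxed alleles and no Cre named in their genotype, and both were taken 24 hours after tamoxifen. The 6 groups thus all carry floxed Gdown1, Cre goes with the deletion in each pair, and liver also holds cells in which the albumin promoter is not active. The comparisons ask how transcripts of the respiratory chain differ after loss of Gdown1 with p53, without p53, and shortly after induced loss without p53.

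In mitochondria, complex I takes electrons from NADH and complex II takes them from succinate. Both pass them through coenzyme Q, complex III and cytochrome c to complex IV, which reduces oxygen. Proton pumping along the way drives complex V, the ATP synthase. Hepatocytes are rich in mitochondria and depend on this chain for gluconeogenesis, urea synthesis and fatty acid oxidation.

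Library totals ranged from 4939408 to 8776369 counts. In library-normalised counts (CPM), Polr2m stood at 59.3 to 64.6 in KO against 96.7 to 100.2 in FF livers, at 58.0 to 59.9 in DKO against 89.0 to 102.6 in p53KO livers, and at 54.5 to 65.9 in DKO TAM against 75.8 to 78.6 in p53KO TAM livers, so the deleted groups were lower without overlap in each pair; the TAM pair was not called (adjusted p = 0.0627 in edgeR). Trp53 stood at 8.12 to 8.39 CPM in DKO, 8.95 to 10.004 CPM in DKO TAM, 2.79 to 3.07 CPM in p53KO, 3.78 to 3.96 CPM in p53KO TAM and 17.1 to 22.5 CPM in KO livers, against 7.94 to 13.1 CPM in FF livers, and where the reads lie in the altered gene cannot be told from the tables. The 13 hepatocyte markers were present in every group and identify the tissue as liver, while the 12 markers of muscle summed to 2.12 to 3.51 CPM in DKO livers, where 8 of them had counts, and to at most 2.29 CPM in the other groups, where 2 to 6 had counts; Ckm and Myh6 were at 0 in all groups. The marker sums differed between the groups compared. Hepatocyte markers summed to 83172 to 94862 CPM in KO and 137967 to 141016 CPM in FF livers, to 46103 to 48775 CPM in DKO and 152747 to 153137 CPM in p53KO livers, and to 77098 to 86052 CPM in DKO TAM and 149239 to 150702 CPM in p53KO TAM livers. Macrophage markers summed to 756 to 844 CPM in KO and 605 to 633 CPM in FF livers, to 1254 to 1322 CPM in DKO and 552 to 594 CPM in p53KO livers, and to 925 to 935 CPM in DKO TAM and 735 to 808 CPM in p53KO TAM livers. Stellate and fibroblast markers summed to 742 to 826 CPM in KO and 559 to 681 CPM in FF livers, and to 1486 to 1556 CPM in DKO and 392 to 411 CPM in p53KO livers; their sums overlapped in the TAM pair. Endothelial markers summed to 677 to 789 CPM in DKO and 853 to 873 CPM in p53KO livers, and to 600.5 to 619 CPM in DKO TAM and 885 to 959.5 CPM in p53KO TAM livers; their sums overlapped between KO and FF livers. Cholangiocyte markers summed to 280.04 to 311 CPM in DKO and 68.4 to 70.1 CPM in p53KO livers, and to 74.3 to 93.3 CPM in DKO TAM and 52.1 to 66.5 CPM in p53KO TAM livers. These sums overlapped between KO and FF livers. Erythroid markers summed to 34.0 to 39.6 CPM in DKO and 217 to 223 CPM in p53KO livers, and overlapped in the other pairs. The brown fat list, with 1 gene tested, summed to 2.88 to 20.0 CPM in KO and 94.8 to 104 CPM in FF livers. It summed to 1.28 to 2.63 CPM in DKO and 150 to 152 CPM in p53KO livers. Lymphocyte sums were at most 13.9 CPM, lower in KO and DKO TAM and higher in DKO livers, without overlap. Sums of macrophage markers were thus higher and sums of hepatocyte markers lower in the deleted group of each pair, without overlap. Single markers were less uniform. In edgeR at an adjusted p under 0.05, 2 of 11 macrophage markers were higher in KO livers. In DKO livers 10 were higher, in DKO TAM livers 1, and 0 were lower in any pair. Of 13 hepatocyte markers 7 were lower in KO, 13 in DKO and 7 in DKO TAM livers, where 1 was higher. Of 11 endothelial markers 1 was higher and 0 lower in KO livers, 2 and 3 in DKO livers, and 0 and 5 in DKO TAM livers. Of 12 stellate and fibroblast markers 1 was higher and 0 lower in KO livers, 11 and 0 in DKO livers, and 0 and 2 in DKO TAM livers. Of 8 tested cholangiocyte markers 0 were higher in KO, 6 in DKO and 1 in DKO TAM livers, and 0 were lower. The part of these shifts in the results below was not tested, and in bulk RNA fewer cells of a type and less RNA per cell cannot be told apart. No label says that the libraries of a group come from separate animals, so the p-values below reflect only how far these libraries vary, which may be technical.

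Promoters of these genes are known for sites of a few shared factors, and those of 6 genes described below are shown. RefSeq windows of 300 bases (250 before to 50 after the start, GRCm38.p6) were at hand for 70 of the 86 genes, 76 windows in all. Short forms of the sites of factors known for respiratory genes were searched on both strands. The NRF1 motif, GCGCA followed by any base and GCGC, was found in 23.7% of the 76 windows, 6.38% of the 21263 windows of protein-coding genes and 4.60% of all 32851 windows. CCGGAAG (ETS and GABP) was found in 23.7%, 11.6% and 8.86% of these sets. AAGATGGC (YY1) was found in 15.8%, 3.05% and 2.75%, and AAGGTCA (ERR) in 10.5%, 4.08% and 4.72%. The NRF1 motif can overlap itself, CCGGAAG can run into AAGATGGC through the shared AAG, and a match is only a match of letters. The stretches below, upstream of the start on the strand of each gene with the motif in capitals, are shown because they come from genes with differing fold changes. Ndufa11, Ndufa8 and Sdhd were called higher in DKO TAM livers, and Sdha, Atp5h, Atp5sl and again Ndufa8 were called lower in DKO livers with TMM.
Ndufa11, NRF1, chr17:56717677-56717736, plus strand: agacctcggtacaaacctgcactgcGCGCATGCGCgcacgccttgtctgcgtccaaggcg
Ndufa8, NRF1, chr2:36049339-36049393, minus strand: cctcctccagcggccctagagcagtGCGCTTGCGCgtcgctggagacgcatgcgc
Sdhd, NRF1, chr9:50603894-50603953, minus strand: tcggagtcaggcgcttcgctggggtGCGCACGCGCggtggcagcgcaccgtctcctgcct
Sdha, NRF1, chr13:74350261-74350320, minus strand: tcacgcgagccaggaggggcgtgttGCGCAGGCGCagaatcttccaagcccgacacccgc
Atp5h, ETS and GABP, chr11:115419926-115419982, minus strand: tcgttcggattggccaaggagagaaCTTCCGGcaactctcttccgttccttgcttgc
Atp5sl, YY1, chr7:25619415-25619472, plus strand: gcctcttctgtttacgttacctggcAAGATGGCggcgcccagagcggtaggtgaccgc
In Ndufa8 and Atp5h the match is on the other strand, so the capitals read as its reverse complement. Over the genes with a window, the NRF1 motif was found for 10 of 42 genes called lower in DKO livers with TMM and 6 of 24 not called there, and for 4 of 17 genes that rose in DKO TAM livers and 12 of 49 not called there. The ETS and GABP motif was found for 7 of the 42 and 11 of the 24 in the DKO comparison, and for 4 of the 17 and 14 of the 49 in the TAM comparison. For the YY1 motif these counts were 9 of the 42 and 2 of the 24, and 2 of the 17 and 9 of the 49. For the ERR motif they were 4 of the 42 and 3 of the 24, and 1 of the 17 and 6 of the 49. These counts are a description and were not tested.

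Levels between genes and between groups are first given as TPM, which divides counts by exon length and sets every library to the same total. On this scale the 86 genes together held 21708 ± 27.7 TPM in KO and 16514.5 ± 611 TPM in FF livers (SD, n = 2 each). They held 18262 ± 399.5 TPM in DKO and 15337 ± 1941 TPM in p53KO livers, and 17703 ± 220.0 TPM in DKO TAM and 11403 ± 200.1 TPM in p53KO TAM livers. The deleted group was thus the higher one in each pair on the TPM scale, without overlap between its libraries and those of its control. By share of all counts, which leaves out exon length, the DKO libraries at 0.701% and 0.723% overlapped the p53KO libraries at 0.711% and 0.606%. The p53KO TAM livers were the lowest of all groups, and the SD of p53KO livers was the largest. The p53KO libraries differed from each other more than those of other groups: the 86 genes took 0.711% of the counts in replicate 1 and 0.606% in replicate 2, and the median tested gene among them was 0.24 higher (log2 CPM) in replicate 1, while this median lay between -0.06 and 0.05 for the replicates of the other 5 groups. Results for DKO against p53KO are therefore also given without each of these libraries.

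**Figure D1:**
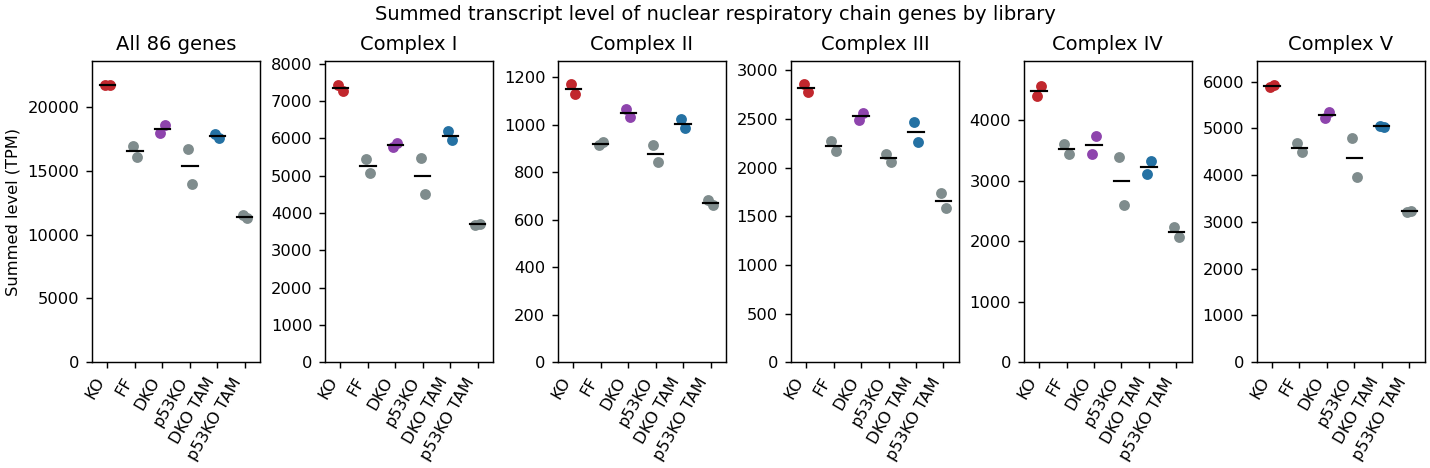
Summed level in TPM of the 86 genes and of each complex (vertical axes, from 0) in the 12 libraries, by group; points are libraries and bars are group means. KO livers are highest at 21708 TPM and p53KO TAM livers lowest at 11403 TPM, and the p53KO libraries lie far apart.

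The complexes shared this order to differing degrees. Complex I summed to 7348 ± 105 TPM in KO and 5256 ± 281 TPM in FF livers, to 5808 ± 74.5 TPM in DKO and 4988 ± 670.0 TPM in p53KO livers, and to 6066 ± 173 TPM in DKO TAM and 3690 ± 13.1 TPM in p53KO TAM livers (SD, n = 2 each). Complex IV summed to 3593 ± 210.1 TPM in DKO and 2996 ± 559 TPM in p53KO livers, a difference close to the spread of the p53KO libraries. Among single genes the highest mean level over the 12 libraries was that of Atp5b, the catalytic beta subunit of ATP synthase, at 1351 TPM. Within the other complexes the highest were Cox6c at 1181 TPM, Uqcrb at 556 TPM, Ndufb9 at 515 TPM and Sdha at 296 TPM. Cox6c and Uqcrb encode small subunits of complexes IV and III, Ndufb9 an accessory subunit of complex I, and Sdha the flavoprotein that oxidises succinate.

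Differences were tested on counts with TMM scaling, which takes most genes as unchanged, and levels on that scale are given as CPM. Of the 86 genes, 78 had enough counts to be tested among 13693 genes. A gene was called when its Benjamini-Hochberg adjusted p from edgeR's quasi-likelihood test over all 13693 genes was under 0.05. In DKO against p53KO livers 25.7% of all genes were called higher and 25.7% lower, so the assumption that most genes are unchanged is strained there. The TMM factors were 1.40 and 1.41 in DKO and 0.826 and 0.831 in p53KO libraries. Scaling by library totals alone also sets every library to the same total but, unlike TPM, does not divide by exon length. It shifted the whole distribution of log2 fold changes upward: the median gene moved by 0.26 in the KO comparison, 0.76 in the DKO comparison and 0.35 in the DKO TAM comparison. The distance between the median of the 78 genes and the median of all genes hardly moved: it was 0.07, -0.68 and 0.24 in these comparisons under TMM, and 0.07, -0.68 and 0.24 under library totals. A scaling factor moves all genes of a library alike, so this distance could not depend on the scaling and lends no further support. Higher and lower below are relative to the TMM scale unless another is named. Groups of 2 libraries seldom overlap for genes named for a small p, so a lack of overlap adds no support to a call.

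**Figure D2:**
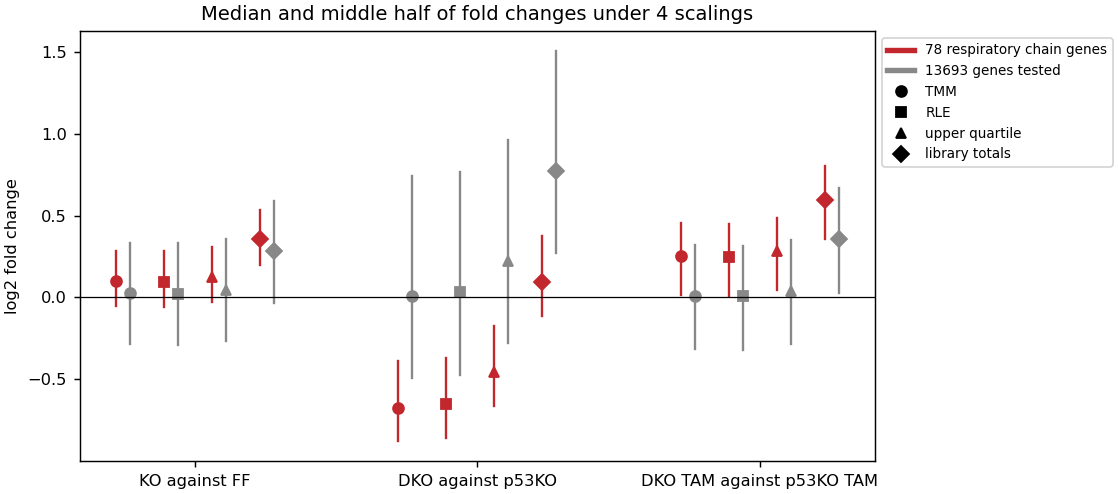
Median (symbol) and interquartile range (line) of the log2 fold changes of the 78 tested respiratory genes, in red, and of all 13693 genes, in grey, for 3 comparisons under 4 scalings. For DKO against p53KO the respiratory median is -0.67 with TMM and 0.09 with library totals. A scaling moves both medians alike, so the distance between them is nearly the same under each.

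In KO against FF livers 8 of the 78 genes rose and 3 fell, with the others not called. Among all genes 6.92% rose and 7.88% fell, so 8 and 3 of 78 lie near that background. The median log2 fold change of the 78 genes was 0.10, beside 0.02 for all genes. It was 0.060 without KO replicate 2, 0.14 without KO replicate 1, 0.12 without FF replicate 1 and 0.13 without FF replicate 2, and its distance from the median of all genes ran between 0.050 and 0.15 in these 4 fits. With library totals 28 rose and 1 fell, where 20.0% of all genes rose and 4.02% fell. By complex, 5 of 35 tested genes of complex I rose and 1 fell, 1 of 6 of complex II fell, 1 of 9 of complex III and 1 of 11 of complex IV rose, and 1 of 17 of complex V rose and 1 fell. The genes not called ranged from -0.23 to 0.50 on the log2 scale in complex I, from 0.03 to 0.50 in complex II, from -0.34 to 0.28 in complex III, from -0.24 to 0.58 in complex IV and from -0.38 to 0.33 in complex V.

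Among the complex I genes that rose, Ndufa11, an accessory subunit of the membrane arm, stood at 31.8 and 27.7 CPM in KO livers, against 19.9 and 17.3 CPM in FF livers. The KO libraries were both above the FF libraries, with a log2 change of 0.69 ± 0.18 (SE; adjusted p = 0.0171) in edgeR. Ndufv1, the flavoprotein that takes electrons from NADH, stood at 124 and 129 CPM in KO livers, against 94.4 and 99.1 CPM in FF livers, and its log2 fold change was 0.39 ± 0.12 (SE; adjusted p = 0.0363) in edgeR. The groups did not overlap for Ndufv1 either. Ndufb6, another membrane arm subunit, changed by 0.56 ± 0.16 (SE; adjusted p = 0.0242) on the log2 scale in edgeR and shares 31.6% of its 50-base windows with transcripts of 1 other gene. Ndufs8, an iron-sulfur subunit on the electron path within complex I, went the other way at 18.95 and 17.3 CPM in KO livers, against 28.2 and 26.2 CPM in FF livers, without overlap, with a log2 change of -0.58 ± 0.18 (SE; adjusted p = 0.0431) in edgeR.

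In complex II, Sdhb, the iron-sulfur subunit that hands electrons from Sdha to the membrane part, stood at 72.6 and 95.6 CPM in KO livers, against 112 and 125 CPM in FF livers. Both KO libraries were below both FF libraries, and the log2 fold change was -0.50 ± 0.14 (SE; adjusted p = 0.0224) in edgeR. In complex III, Uqcrfs1, the Rieske iron-sulfur protein, stood at 190.2 and 249 CPM in KO livers, against 129.8 and 170.2 CPM in FF livers. Its groups lay apart although its replicates spread widely, and its log2 fold change was 0.55 ± 0.18 (SE; adjusted p = 0.0484) in edgeR. In complex IV, Cox7a2, the liver form of subunit VIIa, stood at 50.4 and 68.2 CPM in KO livers, against 34.8 and 46.8 CPM in FF livers, without overlap, with a log2 change of 0.53 ± 0.17 (SE; adjusted p = 0.0407) in edgeR.

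The fall and the rise among the complex V symbols both belong to genes that are not subunits of the enzyme. Atp5sl, whose human product is known as an assembly factor for the membrane arm of complex I, stood at 7.62 and 10.6 CPM in KO livers, against 22.3 and 17.3 CPM in FF livers, with the groups far apart. Its log2 fold change was -1.12 ± 0.21 (SE; adjusted p = 0.00192) in edgeR. Atp5s, a factor associated with ATP synthase coupling, was a low transcript at 9.14 and 9.22 CPM in KO livers, against 4.51 and 5.18 CPM in FF livers, with a log2 change of 0.91 ± 0.26 (SE; adjusted p = 0.0264) in edgeR. Of the 11 called genes, Atp5sl was the only one that remained called when each of the 4 libraries was left out in turn. Fewer genes rose in each of these 4 fits, and calls over all genes were not counted in them.

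**Figure D3:**
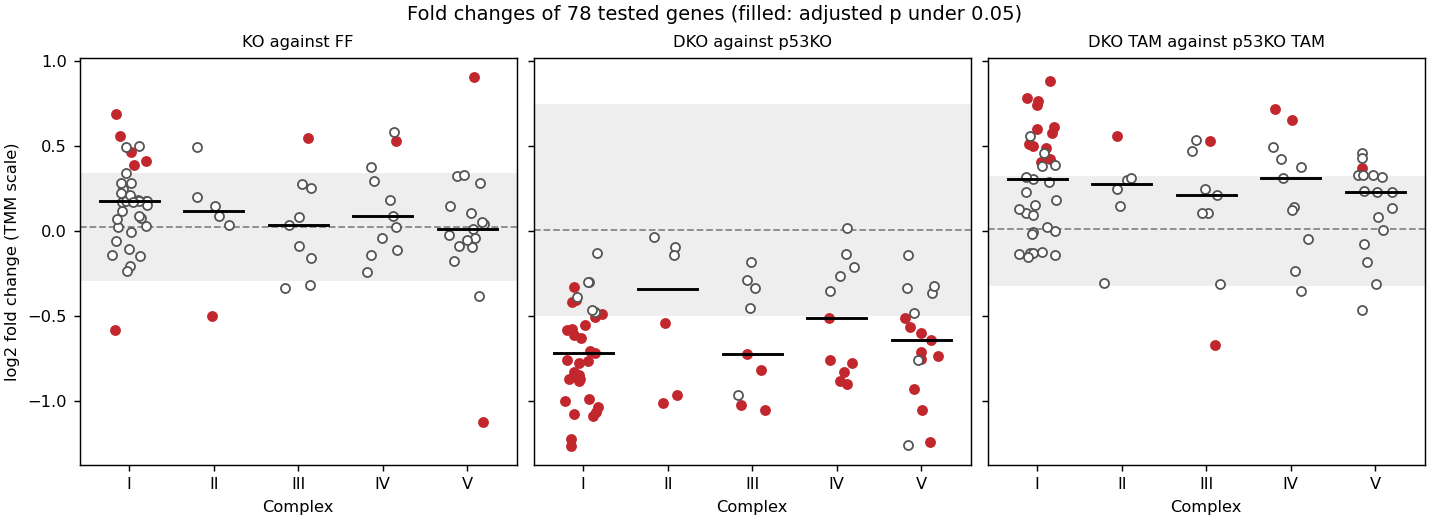
Log2 fold change on the TMM scale (vertical axis) of the 78 tested genes by complex in 3 comparisons; filled points are called at an adjusted p under 0.05 in edgeR, black bars are medians of a complex, the dashed line and grey band are the median and interquartile range of all 13693 genes. In DKO against p53KO livers 52 genes are called lower and 0 higher, a direction that holds relative to the dashed line but turns for 24 of the 52 with library totals.

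In DKO against p53KO livers 52 of 78 genes were called lower and 0 higher with TMM, while 25.7% of all genes were called lower and 25.7% higher. At an unadjusted p under 0.05 in edgeR 0 genes were higher, and DESeq2 and limma-voom also called 0 higher. The median log2 fold change was -0.67, beside 0.01 for all genes, and 77 of 78 genes were below 0. With library totals alone the picture relative to all RNA was different: 18 genes were called higher and 4 lower, where 64.3% of all genes were called higher and 7.01% lower, the median was 0.09, and 24 of the 52 genes turned above 0. The 78 genes sat below the middle of all genes under both scalings, a position that the choice of scaling could not change. The 4 genes lower under both scalings were Ndufa10, Ndufb10, Ndufa6 and Atp5sl. Without p53KO replicate 1 the median was -0.45, and its distance from the median of all genes was -0.48. Without p53KO replicate 2 they were -0.78 and -0.80. Calls over all genes were not counted in the fits without 1 library. Of the 52 genes, 33 remained called without each of the 4 libraries in turn.

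Complex I held 29 of the 52, of 35 tested. Ndufa10, an accessory subunit of the membrane arm, stood at 72.7 and 75.7 CPM in DKO livers, against 159 and 145 CPM in p53KO livers. The DKO libraries reached about the same low value and were far below both p53KO libraries, with a log2 change of -1.04 ± 0.12 (SE; adjusted p = 3.18e-06) in edgeR. Ndufb10, also of the membrane arm, stood at 25.6 and 27.9 CPM in DKO livers, against 78.3 and 49.7 CPM in p53KO livers, a log2 change of -1.27 ± 0.17 (SE; adjusted p = 9.22e-06) in edgeR, and here the p53KO libraries lay far apart. Ndufb9, the most abundant complex I transcript per length, changed by -0.99 ± 0.13 (SE; adjusted p = 1.35e-05) on the log2 scale in edgeR. Ndufs1, the large iron-sulfur subunit of the peripheral arm, stood at 103 and 94.9 CPM in DKO livers, against 174 and 162 CPM in p53KO livers, a log2 change of -0.77 ± 0.12 (SE; adjusted p = 4.86e-05) in edgeR. Ndufv1 and Ndufa8 were among the smallest of the falls at -0.33 and -0.40 on the log2 scale, and turned to 0.44 and 0.36 with library totals. Both lost their calls without DKO replicate 2 and without DKO replicate 3. The 6 tested complex I genes that were not called ranged from -0.48 to -0.13 on this scale.

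In complex II the catalytic subunits and 1 of the membrane anchors were called. Sdha stood at 217 and 218 CPM in DKO livers, against 488 and 360.0 CPM in p53KO livers, a log2 change of -0.96 ± 0.14 (SE; adjusted p = 3.13e-05) in edgeR. Sdhb stood at 56.2 and 62.8 CPM in DKO livers, against 123 and 117 CPM in p53KO livers, a log2 change of -1.01 ± 0.14 (SE; adjusted p = 1.31e-05) in edgeR. The groups did not overlap for either gene. Of the membrane anchors that bind coenzyme Q, Sdhc changed by -0.54 ± 0.12 (SE; adjusted p = 0.00123) on the log2 scale in edgeR, a sign that turned to 0.22 with library totals, while Sdhd at 90.1 and 83.4 CPM in DKO livers, against 94.5 and 97.1 CPM in p53KO livers was not called, with a log2 change of -0.14 ± 0.11 (SE; adjusted p = 0.318) in edgeR. The assembly factors Sdhaf1 and Sdhaf2, which help insert the cofactors of Sdhb and Sdha, were at -0.10 and -0.04 on the log2 scale and not called.

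In complex III 4 of 9 genes were called lower. Uqcrq, a small subunit that binds cytochrome b, stood at 48.5 and 47.9 CPM in DKO livers, against 93.5 and 102 CPM in p53KO livers, a log2 change of -1.02 ± 0.13 (SE; adjusted p = 7.92e-06) in edgeR. Uqcrb changed by -0.81 ± 0.15 (SE; adjusted p = 0.000312) in edgeR, and Uqcrc1, a core subunit, by -0.72 ± 0.12 (SE; adjusted p = 0.000139) in edgeR, which became 0.042 with library totals. Uqcrfs1 and Cyc1, the cytochrome c1 heme protein, belong to the electron path of this complex and were not called, at -0.29 and -0.18 on the log2 scale.

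In complex IV 6 of 11 tested genes were called lower. Cox7b stood at 94.4 and 96.8 CPM in DKO livers, against 189.6 and 163 CPM in p53KO livers, a log2 change of -0.88 ± 0.13 (SE; adjusted p = 2.22e-05) in edgeR, and the p53KO libraries were both above the DKO libraries. Cox5b, which binds zinc on the matrix side, changed by -0.76 ± 0.16 (SE; adjusted p = 0.000951) in edgeR, and 0.0059 with library totals. Cox7c changed by -0.78 ± 0.17 (SE; adjusted p = 0.00142) in edgeR. Cox7a2 was the gene of the 78 above 0, at 33.9 and 37.2 CPM in DKO livers, against 35.3 and 34.9 CPM in p53KO livers, and its log2 fold change of 0.02 ± 0.17 (SE; adjusted p = 0.942) in edgeR did not pass.

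In complex V 10 of 17 genes were called lower. Atp5c1, the rotating gamma subunit, stood at 146 and 143 CPM in DKO livers, against 239 and 247 CPM in p53KO livers, a log2 change of -0.75 ± 0.12 (SE; adjusted p = 5.05e-05) in edgeR that became 0.011 with library totals. Atp5h, of the stator stalk, changed by -1.05 ± 0.16 (SE; adjusted p = 3.67e-05) in edgeR, with p53KO replicate 1 at 88.0 CPM and replicate 2 at 57.2 CPM. The abundant Atp5b stood at 756 and 804 CPM in DKO livers, against 1221 and 999.6 CPM in p53KO livers, a log2 change of -0.51 ± 0.15 (SE; adjusted p = 0.00801) in edgeR that turned to 0.26 with library totals. Atp5b lost its call without p53KO replicate 1 and without DKO replicate 2. Atp5sl, again not a subunit of complex V, stood at 8.05 and 8.64 CPM in DKO livers, against 19.95 and 19.5 CPM in p53KO livers, a log2 change of -1.24 ± 0.20 (SE; adjusted p = 5.93e-05) in edgeR that kept its direction at -0.48 with library totals.

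The 86 genes are short, with a median exon length of 680 bases beside 2871 bases over all genes tested, and fold changes in DKO against p53KO livers moved with length. All genes of up to 700 bases had a median log2 fold change of -0.43, and the 39 respiratory genes of that length had -0.76. All genes of over 2500 bases had a median of 0.08, and the 4 respiratory genes of that length had -0.53. Respiratory genes were thus below all genes of like length in each of the 5 length classes of this comparison. Genes of up to 1000 bases were 0.20 higher (log2 CPM) in p53KO replicate 1 than in replicate 2. The part of length in the result was not tested.

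In DKO TAM against p53KO TAM livers 17 of 78 genes rose and 1 fell, where 8.61% of all genes rose and 10.1% fell. The median log2 fold change was 0.25, beside 0.01 for all genes, and with library totals 53 genes rose and 0 fell, where 31.7% of all genes rose and 4.28% fell. These rises are relative to p53KO TAM livers, where levels were low. On the TMM scale the respiratory genes summed to 6562 ± 51.1 CPM in DKO TAM and 5516 ± 72.7 CPM in p53KO TAM livers (SD). Both were below the sums of 7951 ± 933 CPM in p53KO and 8078 ± 59.4 CPM in FF livers. On the TPM scale DKO TAM livers were instead the highest of these groups. DKO TAM livers were not tested against p53KO or FF livers. Complex I held 12 of the 17 that rose, complex IV 2 and complexes II, III and V 1 each. The genes not called ranged from -0.15 to 0.56 on the log2 scale in complex I, from -0.30 to 0.32 in complex II, from -0.31 to 0.54 in complex III, from -0.35 to 0.50 in complex IV and from -0.47 to 0.46 in complex V. Fewer genes rose when 1 of the 4 libraries was left out, and calls over all genes were not counted in these fits. The median of the 78 genes stayed between 0.21 and 0.28, and its distance from the median of all genes between 0.20 and 0.28. Cox6b1, Sdhd and Ndufa8 remained called without each of the 4 libraries in turn.

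Cox6b1, a subunit of complex IV that faces the intermembrane space, stood at 50.7 and 50.02 CPM in DKO TAM livers, against 31.00 and 30.03 CPM in p53KO TAM livers. The replicates of each group nearly coincided, and the log2 fold change was 0.72 ± 0.13 (SE; adjusted p = 0.00115) in edgeR. Cox7a2 stood at 43.2 and 48.6 CPM in DKO TAM livers, against 28.7 and 29.6 CPM in p53KO TAM livers, a log2 change of 0.66 ± 0.17 (SE; adjusted p = 0.0121) in edgeR. The groups did not overlap for either gene.

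In complex I, Ndufa8, an accessory subunit of the membrane arm on the intermembrane side, stood at 44.95 and 42.9 CPM in DKO TAM livers, against 29.3 and 28.2 CPM in p53KO TAM livers, a log2 change of 0.61 ± 0.14 (SE; adjusted p = 0.00644) in edgeR. Ndufa5, of the peripheral arm, stood at 34.5 and 31.6 CPM in DKO TAM livers, against 18.8 and 20.2 CPM in p53KO TAM livers, a log2 change of 0.77 ± 0.18 (SE; adjusted p = 0.00726) in edgeR. Ndufa11 stood at 19.9 and 21.9 CPM in DKO TAM livers, against 11.9 and 12.3 CPM in p53KO TAM livers, a log2 change of 0.78 ± 0.19 (SE; adjusted p = 0.00817) in edgeR. Both DKO TAM libraries were above both p53KO TAM libraries for each of these 3 genes. The largest rise was that of Ndufa12 at 0.89 ± 0.26 (SE; adjusted p = 0.0348) on the log2 scale in edgeR, a gene named after its values were seen.

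In complex II, Sdhd stood at 102 and 106 CPM in DKO TAM livers, against 71.2 and 69.9 CPM in p53KO TAM livers, a log2 change of 0.56 ± 0.12 (SE; adjusted p = 0.00326) in edgeR, and was the member of that complex that rose. Its partners Sdha and Sdhb were not called, at 0.30 and -0.30. In complex III, Uqcrfs1 changed by 0.53 ± 0.18 (SE; adjusted p = 0.0464) in edgeR. Uqcrq was the gene of the 78 that fell: it stood at 50.2 and 46.3 CPM in DKO TAM livers, against 85.4 and 67.6 CPM in p53KO TAM livers, without overlap, a log2 change of -0.67 ± 0.13 (SE; adjusted p = 0.0024) in edgeR that kept its sign at -0.32 with library totals and was not called without p53KO TAM replicate 1. In complex V, Atp5d, the delta subunit of the rotating stalk, stood at 133 and 123 CPM in DKO TAM livers, against 91.8 and 106 CPM in p53KO TAM livers, a log2 change of 0.37 ± 0.12 (SE; adjusted p = 0.0398) in edgeR, and lost its call without each of the 4 libraries.

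**Figure D4:**
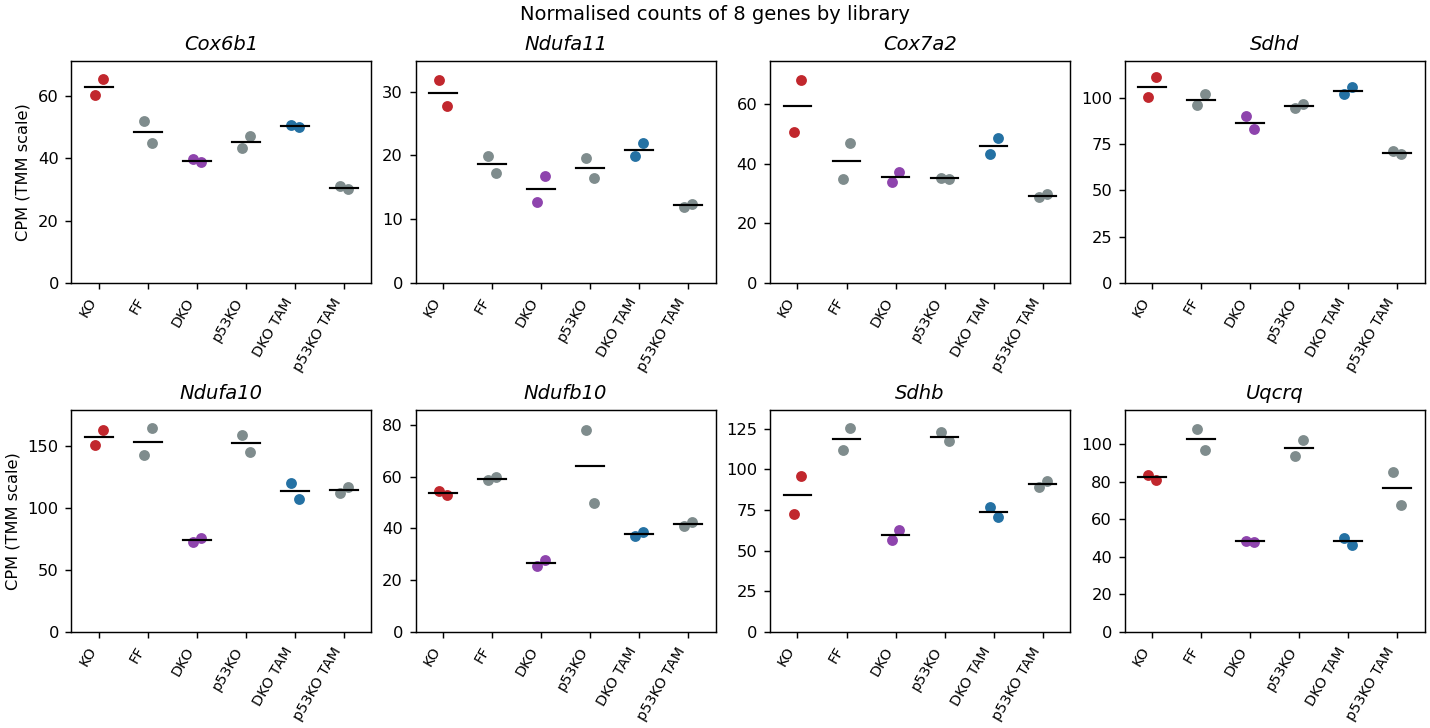
Normalised counts (CPM on the TMM scale, from 0) of 8 respiratory genes in the 12 libraries by group; points are libraries and bars group means. Cox6b1, Ndufa11, Cox7a2 and Sdhd are higher in DKO TAM than in p53KO TAM livers, Uqcrq is lower there, and Ndufa10 and Ndufb10 are lower in DKO than in p53KO livers with fold changes of -0.0064 and -0.14 (log2, not called) between DKO TAM and p53KO TAM livers; with library totals Ndufa10 and Ndufb10 stay lower in DKO livers.

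The called genes of the 3 comparisons overlapped in part. Of the 8 genes that rose in KO livers 7 also rose in DKO TAM livers (87.5% of the 8 and 41.2% of the 17): Uqcrfs1, Ndufa11, Ndufv1, Ndufa8, Ndufb6, Ndufc2 and Cox7a2. Over all genes tested, 400 were called higher in both (42.2% of the 947 in KO and 33.9% of the 1179 in DKO TAM livers). The 3 genes that fell in KO livers, Ndufs8, Sdhb and Atp5sl, were also among the 52 called lower in DKO livers (5.77% of these), and over all genes 871 of 1079 were (80.7%, and 24.7% of the 3525 called lower in DKO livers). Of the 17 genes that rose in DKO TAM livers, 8 were called lower in DKO livers with TMM (47.1% of the 17 and 15.4% of the 52), a smaller share than the 52 of all 78. Over all genes 97 had this pair of opposite calls (8.23% of the 1179 and 2.75% of the 3525). With library totals 6 of the 8 lay above 0 in DKO livers, of which 2 were called higher, and 0 of the 8 were called lower. Uqcrq was called lower in both comparisons with TMM and in neither with library totals. The overlaps were not tested against those of all genes. These pairs share no library.

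The differences between the effects were tested directly. The log2 effect in DKO (against p53KO) minus that in KO (against FF) was called below 0 for 46 of 78 genes and above 0 for 0, where 12.9% of all genes were called below and 9.76% above. Set against the tamoxifen pair (DKO TAM against p53KO TAM), the DKO effect was lower for 55 genes and higher for 0, where 14.2% and 13.4% of all genes were called. At an unadjusted p under 0.05 in edgeR 0 genes were above 0 in either difference, and DESeq2 and limma-voom also called 0 above. With library totals 2 genes were called below and 0 above in the first difference, where 3.64% and 26.0% of all genes were, and 19 below and 1 above (Cox7a2l) in the second, where 4.89% and 24.6% were. The medians then were -0.24 and -0.47, so their direction held while most calls did not. Without p53KO replicate 1 fewer genes were called below 0 in both differences, and calls over all genes were not counted in that fit. In the first difference p53, age and experiment differ together and cannot be told apart. In the second, tamoxifen, the form of Cre, the time since deletion and the experiment differ together and cannot be told apart either. The levels of its controls differ as well. Respiratory genes summed to 5516 ± 72.7 CPM in p53KO TAM and 7951 ± 933 CPM in p53KO livers with TMM (SD). No age is labelled for the tamoxifen groups.

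Ndufa10 had the smallest p in the first difference: its log2 fold change was -1.04 in DKO livers and 0.03 in KO livers, a difference of -1.07 ± 0.17 (SE; adjusted p = 0.000473) in edgeR. Sdha differed by -0.997 ± 0.20 (SE; adjusted p = 0.00222) and Ndufs1 by -0.95 ± 0.17 (SE; adjusted p = 0.000864) in edgeR. In the second difference Ndufb9 had the smallest p: its log2 fold change was -0.99 in DKO livers and 0.39 in DKO TAM livers, a difference of -1.38 ± 0.19 (SE; adjusted p = 8.71e-05) in edgeR. Ndufb5 was called lower in DKO livers at -0.87 and higher in DKO TAM livers at 0.50, a difference of -1.37 ± 0.20 (SE; adjusted p = 0.000122) in edgeR. Ndufa5 differed by -1.49 ± 0.25 (SE; adjusted p = 0.000384) in edgeR. Each of these genes except Ndufs1 and Sdha in the first difference remained called under each alternative tried; those 2 were lost with library totals alone.

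**Figure D5:**
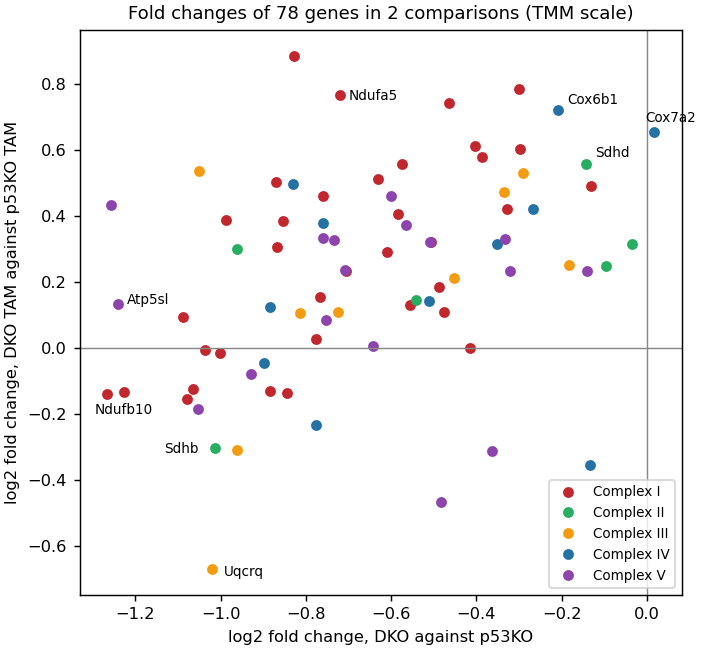
Log2 fold change on the TMM scale of each of the 78 tested genes in DKO against p53KO livers (horizontal axis) and in DKO TAM against p53KO TAM livers (vertical axis), coloured by complex. All genes but Cox7a2 lie left of 0 and most lie above 0; with library totals 48 genes lie right of 0 on the horizontal axis.

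In p53KO against FF livers, both without Cre, 0 of 78 genes were called in either direction in edgeR, where 0.592% of all genes rose and 0.270% fell. At an unadjusted p under 0.05 in edgeR 1 was higher and 1 lower, and DESeq2 and limma-voom called 0. The median log2 fold change was -0.05, beside -0.0029 for all genes. Age and experiment differ between these groups as well as p53, and these cannot be told apart.

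Several subunits exist as tissue isoforms, and the liver forms dominated. Cox7a2 averaged 143.6 TPM and Cox7a1, its heart and muscle form, 4.30 TPM. Cox8a averaged 225 TPM and Cox8b, its muscle form, 0.286 TPM. Cox4i1 averaged 432 TPM and Cox4i2, its lung form, 0.522 TPM, and Cox6a1 averaged 160.4 TPM beside 0.0849 TPM for Cox6a2, its muscle form. These muscle and lung forms had too few counts to be tested, as had Ndufa4l2. Of the ubiquitous forms, Cox4i1 changed by -0.51 ± 0.13 (SE; adjusted p = 0.00295) and Cox8a by -0.83 ± 0.23 (SE; adjusted p = 0.0105) in DKO against p53KO livers in edgeR. Cox4i1 turned to 0.26 with library totals, and Cox8a was not called without p53KO replicate 1. Cox6a1 was not called in any of the 3 comparisons. Of the 3 genes that encode the same mature c subunit of the ATP synthase rotor, Atp5g3 averaged 213 TPM, Atp5g1 34.4 TPM and Atp5g2 8.76 TPM. Among these 3, Atp5g3 was called, in DKO against p53KO livers and not in the other 2 comparisons, at -0.64 ± 0.13 (SE; adjusted p = 0.000665) in edgeR, which became 0.12 with library totals. Ndufa4, now seen as a complex IV subunit despite its symbol, stood at 30.2 and 32.9 CPM in DKO livers, against 71.3 and 34.7 CPM in p53KO livers. The high value is that of p53KO replicate 1, and the log2 fold change of -0.76 ± 0.27 (SE; adjusted p = 0.0357) in edgeR became -0.14, not called, without that library and 0.0073 with library totals.

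The genes of the factors whose motifs are printed above were among 18 regulators of respiratory genes tested. Of these 18, 1 rose and 3 fell in KO livers with TMM, against 3 and 3 with library totals. In DKO livers 1 rose and 7 fell with TMM, against 11 and 1 with library totals. In DKO TAM livers 3 rose and 2 fell with TMM, against 6 and 0 with library totals. Gabpa, which binds the ETS motif, fell in all 3 comparisons with TMM, and only in KO livers with library totals. It averaged 74.04 ± 2.03 CPM in KO livers and 119.9 ± 10.9 CPM in FF livers (SD, n = 2 each), a log2 change of -0.70 ± 0.12 (SE; adjusted p = 0.000934) in edgeR and -0.44 (adjusted p = 0.0116) with library totals. It averaged 67.2 ± 0.0204 CPM in DKO livers and 133 ± 10.5 CPM in p53KO livers, a log2 change of -0.99 ± 0.12 (SE; adjusted p = 3.20e-06) in edgeR and -0.23 (adjusted p = 0.0845) with library totals. It averaged 83.9 ± 0.300 CPM in DKO TAM livers and 121 ± 0.448 CPM in p53KO TAM livers, a log2 change of -0.53 ± 0.12 (SE; adjusted p = 0.00454) in edgeR and -0.19 (adjusted p = 0.213) with library totals. The gene lies beside Atp5j, a stator stalk gene that shares 16.2% of its exon bases with Gabpa on the other strand, and the 4 file headers that hold the counting command set no strand option, so reads of these genes may not be told apart. Ppargc1a, a coactivator of mitochondrial genes, fell in KO livers at -0.86 ± 0.16 (SE; adjusted p = 0.00151) on the log2 scale in edgeR and in DKO livers at -0.37 ± 0.14 (SE; adjusted p = 0.0345), which turned to 0.40 (adjusted p = 0.0206) with library totals. Yy1 was called lower in DKO livers with TMM, at -0.37 ± 0.12 (SE; adjusted p = 0.018) in edgeR, and higher with library totals, at 0.40 (adjusted p = 0.00947); in DKO TAM livers it was not called with TMM and was called higher with library totals, at 0.34 (adjusted p = 0.0471). Nrf1 and Esrra were not called in any of the 3 comparisons with TMM, but with library totals both were called higher in DKO livers, at 0.54 (adjusted p = 0.00901) and 0.91 (adjusted p = 0.00649). Esrrg, an orphan nuclear receptor of oxidative genes, rose in DKO livers at 1.19 ± 0.27 (SE; adjusted p = 0.00135) and in DKO TAM livers at 1.97 ± 0.32 (SE; adjusted p = 0.00056) in edgeR, and in both also with library totals.

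Genes of neighbouring pathways were taken from lists of their known members. Their counts, and those of the regulators above, stand beside the shares of all genes given before: with TMM 6.92% rose and 7.88% fell in KO livers, 25.7% rose and 25.7% fell in DKO livers, and 8.61% rose and 10.1% fell in DKO TAM livers, and with library totals 20.0% and 4.02%, 64.3% and 7.01%, and 31.7% and 4.28%. Of 14 complex I assembly genes 1 rose and 0 fell in KO livers with TMM, against 5 and 0 with library totals. In DKO livers 0 rose and 7 fell with TMM, against 5 and 0 with library totals, and in DKO TAM livers 2 rose and 1 fell, against 4 and 0. Of 22 tested complex IV assembly genes 3 rose and 1 fell in KO livers with TMM, against 5 and 1 with library totals. In DKO livers 0 rose and 11 fell, against 9 and 1, and in DKO TAM livers 1 rose and 1 fell, against 9 and 0. Lrpprc, which stabilises mitochondrial messenger RNA, averaged 183 ± 11.9 CPM in DKO livers and 361 ± 3.83 CPM in p53KO livers (SD, n = 2 each), a log2 change of -0.98 ± 0.13 (SE; adjusted p = 1.40e-05) in edgeR that became -0.22 (adjusted p = 0.14) with library totals. Fastkd1, a mitochondrial RNA-binding protein, fell in all 3 comparisons, at -0.86 ± 0.16 (SE; adjusted p = 0.00148) in KO, -1.22 ± 0.15 (SE; adjusted p = 4.80e-06) in DKO and -0.54 ± 0.15 (SE; adjusted p = 0.0209) in DKO TAM livers in edgeR, and kept its sign with library totals, without a call in DKO TAM livers. Cox15, needed for the heme of complex IV, rose in KO livers at 0.77 ± 0.15 (SE; adjusted p = 0.00265) and in DKO TAM livers at 0.67 ± 0.15 (SE; adjusted p = 0.00408) in edgeR. Of 4 complex III assembly genes 0 were called in KO livers under either scaling. In DKO livers 0 rose and 2 fell with TMM, against 2 and 0 with library totals, and in DKO TAM livers 0 rose and 1, Lyrm7, fell, against 2 and 0. Of 5 genes for assembly or inhibition of complex V 0 were called in KO livers with TMM, against 4 that rose and 0 that fell with library totals. In DKO livers 1 rose and 1 fell, against 4 and 0, and in DKO TAM livers 2 rose and 0 fell, against 5 and 0. Atpif1, the inhibitor of ATP hydrolysis, rose in DKO livers at 1.21 ± 0.21 (SE; adjusted p = 0.000164) and in DKO TAM livers at 0.83 ± 0.22 (SE; adjusted p = 0.0146) in edgeR. Usmg5, a small subunit associated with ATP synthase, was called lower in DKO livers with TMM, at -0.45 ± 0.15 (SE; adjusted p = 0.0208) in edgeR, which turned to 0.32 (adjusted p = 0.062) with library totals, and rose in DKO TAM livers at 0.70 ± 0.15 (SE; adjusted p = 0.00449) in edgeR.

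Of 15 genes for electron carriers and coenzyme Q synthesis 3 rose and 0 fell in KO livers with TMM, against 5 and 0 with library totals. In DKO livers 2 rose and 8 fell, against 7 and 0, and in DKO TAM livers 4 rose and 1 fell, against 9 and 1. Coq6, a hydroxylase of coenzyme Q synthesis, rose in KO livers at 1.11 ± 0.26 (SE; adjusted p = 0.00837), in DKO livers at 1.14 ± 0.24 (SE; adjusted p = 0.000828) and in DKO TAM livers at 1.05 ± 0.23 (SE; adjusted p = 0.00512) in edgeR. Etfa, Etfb and Etfdh, which feed electrons of fatty acid oxidation into coenzyme Q, were called lower in DKO livers with TMM, at -0.90 ± 0.12 (SE; adjusted p = 1.18e-05), -1.05 ± 0.16 (SE; adjusted p = 5.27e-05) and -0.90 ± 0.12 (SE; adjusted p = 1.55e-05) on the log2 scale in edgeR. With library totals they stayed below 0 and were not called.

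Of 18 genes of the tricarboxylic acid cycle and pyruvate dehydrogenase 3 rose and 1 fell in KO livers with TMM, against 8 and 0 with library totals. In DKO livers 2 rose and 13 fell, against 8 and 1, and in DKO TAM livers 4 rose and 0 fell, against 13 and 0. Mdh2, mitochondrial malate dehydrogenase, averaged 332 ± 32.6 CPM in KO livers and 138 ± 2.53 CPM in FF livers (SD, n = 2 each), a log2 change of 1.27 ± 0.13 (SE; adjusted p = 6.10e-06) in edgeR. It averaged 327 ± 9.64 CPM in DKO livers and 159.5 ± 1.63 CPM in p53KO livers, a log2 change of 1.04 ± 0.13 (SE; adjusted p = 4.75e-06) in edgeR. It averaged 407 ± 33.3 CPM in DKO TAM livers and 131 ± 12.01 CPM in p53KO TAM livers, a log2 change of 1.64 ± 0.13 (SE; adjusted p = 5.99e-07) in edgeR. Idh3a, a subunit of isocitrate dehydrogenase, also rose in all 3 comparisons, at 0.66 ± 0.13 (SE; adjusted p = 0.0024) in KO, 0.62 ± 0.13 (SE; adjusted p = 0.000673) in DKO and 1.12 ± 0.13 (SE; adjusted p = 1.79e-05) in DKO TAM livers in edgeR. Pdha1, a subunit of pyruvate dehydrogenase, fell in KO livers at -0.54 ± 0.12 (SE; adjusted p = 0.00597) and in DKO livers at -1.11 ± 0.12 (SE; adjusted p = 1.04e-06) in edgeR, and stayed below 0 with library totals, called in DKO livers alone.

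Some genes could not be measured cleanly. Ndufs5, a complex I subunit, was listed at 0 in all 12 libraries; 95.1% of its exon bases in the tables also belong to BC002163 on the same strand. Cox7b2 and Cox8c were also listed at 0 in all 12 libraries. Of the 86 genes, 51 share at least 1 window of 50 bases with a transcript of another gene in GENCODE vM21, with a median of 1.73% of windows over the 86, and Sdhaf1 shares 69.0%. How reads that match more than 1 place were treated is not given in the sources used here, so the counts of such genes are uncertain.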

How the data were processed

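Liver RNA was prepared with the SMARTer Stranded Total RNA kit, per the labels' protocols. The deposited files hold raw read counts per gene made with featureCounts (version 1.6.4 and no strand option, per the file headers of 4 files); HISAT2, CASAVA 1.82 and the mm10 build are named in the submitters' processing notes. Samples were grouped by title. Genes were tested with edgeR 4.0.16 (R 4.3.3) by a quasi-likelihood fit of 6 group means over 12 libraries, with TMM scaling, a minimum count of 10 in the expression filter and Benjamini-Hochberg adjustment over 13693 genes; standard errors (SE) are fold changes on the log2 scale over the root of F. TPM used the exon lengths in the files. The script was tested on simulated data. Alternatives were other scalings, filters and thresholds, a gene exclusion, DESeq2 1.42.0, limma-voom (limma 3.58.1), only the libraries compared, a replicate block and leaving out each library. Named genes were the 3 with the smallest p per complex, direction and comparison, the highest TPM per complex, isoforms, genes that are no subunit, the 6 with the smallest p per difference of effects, any regulator, and the 3 with the smallest p per pathway list. The genes and lists were chosen with earlier results of these data known.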

Additional observations from a re-analysis of the deposited data

Results flagged for a closer look

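With TMM the effect of the deletion on respiratory genes differed between the pairs of groups, by a test of the difference itself in edgeR. For the effect in DKO (against p53KO) minus that in KO (against FF), 46 of 78 genes were called below 0, where 12.9% of all genes were. Those with the smallest p were Ndufa10 at -1.07, Ndufs1 at -0.95, Sdha at -0.997, Atp5d at -0.85, Ndufb10 at -1.12 and Atp5l, a membrane subunit of ATP synthase, at -1.04, each as a log2 difference. Set against the tamoxifen pair (DKO TAM against p53KO TAM), the DKO effect was called lower for 55 of 78 genes, where 14.2% of all genes were. Those with the smallest p were Ndufb9 at -1.38, Ndufb5 at -1.37, Sdha at -1.26, Ndufa5 at -1.49, Ndufa10 at -1.03 and Ndufv2 at -0.99. Both differences share the DKO and p53KO libraries. Fewer genes were called in both differences without p53KO replicate 1, where calls over all genes were not counted. With library totals 2 and 19 of the 78 genes were called below 0, where 3.64% and 4.89% of all genes were.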

How the results depend on the processing

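RLE scaling, the other filters, the gene exclusion and limma-voom kept every count and median of the 78 genes within 1.5 times or 1 SD, with its direction. With upper quartile scaling the median of DKO against p53KO was -0.46, beside 0.22 for all genes. In the DKO minus KO difference 26 genes were then called below 0, where 7.87% of all genes were. With library totals alone KO against FF gave 28 higher, 1 lower and a median of 0.35; DKO against p53KO gave 18 higher, 4 lower and 0.091; DKO TAM against p53KO TAM gave 53 higher, 0 lower and 0.60; and the differences of effects gave 2 lower against KO, and 1 higher and 19 lower against DKO TAM. Of the named genes called lower in DKO livers, 13 then lay above 0: Ndufv1 at 0.44, Ndufa8 at 0.36, Atp5b at 0.26, Cox4i1 at 0.26, Sdhc at 0.22, Atp5d at 0.20, Ndufv2 at 0.18, Atp5g3 at 0.12, Ndufa5 at 0.047, Uqcrc1 at 0.042, Atp5c1 at 0.011, Ndufa4 at 0.0073 and Cox5b at 0.0059 (log2 fold change). DESeq2 called 2 higher in KO livers, and a fit of only the libraries compared 5. At an adjusted p under 0.01 KO against FF had 0 higher and 1 lower, DKO TAM against p53KO TAM 5 higher, and the DKO minus KO difference 21 lower. A stricter threshold can only lower the calls of any set of genes. Calls over all genes were not counted at this threshold, with DESeq2 or in the fit of only the libraries compared. Without 1 library, KO against FF had 1 to 4 higher and 1 to 2 lower, DKO against p53KO a median of -0.78 to -0.45, DKO TAM against p53KO TAM 5 to 9 higher and 0 to 1 lower, and the DKO minus KO difference 30 to 52 lower. The causes were not tested, beyond the smaller number of libraries.

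The DKO libraries are numbered 2 and 3 in the titles, used here as names, and 1 and 2 in the descriptions, used here for the pairing and the block. Deviations of libraries with the same description number had correlations of -0.07 at 8 weeks, 0.11 at 7 weeks and -0.01 after tamoxifen. Each rests on a single pair of replicate differences, so whether the numbers pair the libraries cannot be told from it. By title numbers, DKO and p53KO libraries share a single number and no block could be fitted for them. With a replicate block 5 genes were higher in KO livers, and no other count of the 78 genes moved by over 1.5 times. Calls over all genes were not counted with the block. With 2 libraries a group and 4939408 to 8776369 counts each, 8 of 86 genes had too few counts to test.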
